A study of Rattus norvegicus with 8 samples.

Results

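Small nucleolar RNAs (snoRNAs), spliceosomal RNAs and other short structural RNAs were followed in rat dorsal root ganglia (DRG), the clusters of sensory nerve cell bodies beside the spinal cord. A gene was taken as a member when its symbol was of the form SNORA, SNORD, U with a number, 5S, 5_8S or 7SK, or when its description named a small nucleolar, spliceosomal, 5S ribosomal or 5.8S ribosomal RNA. This gave 48 members among the 4351 genes of the 2 deposited tables. The IMQ against WT table listed 45 of them, the lidocaine against IMQ table listed 5, and 2 were in both.

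The 8 libraries were from Sprague Dawley rats of wild-type genotype and 250 g body weight, with ganglia taken on day 7. The lidocaine group (n = 2) had imiquimod put on the back skin for 6 days and, from day 3, an epidural injection of 1% lidocaine for 4 days. The IMQ group (n = 3) had the imiquimod alone, and the WT group (n = 3) had neither. No sham cream for WT and no epidural injection without drug is described, so the drug cannot be told apart from the injection, nor imiquimod from its cream. Imiquimod activates Toll-like receptor 7 and is used on rodent skin as a model of psoriasis, and lidocaine blocks voltage-gated sodium channels. The labels leave unsaid whether the libraries of a group are from different rats, and a p-value here reflects only how far libraries lay apart.

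As background, box C/D snoRNAs pair with ribosomal or spliceosomal RNA and guide 2'-O-methylation by fibrillarin, while box H/ACA snoRNAs guide pseudouridylation by dyskerin. In mammals most are cut from introns of host genes, many of which encode ribosomal proteins and translation factors. U1 and U2 recognise the 5' splice site and the branch point of introns, U7 takes part in forming the 3' ends of replication-dependent histone mRNAs, 5S and 5.8S RNAs belong to the large ribosomal subunit, and 7SK RNA holds the elongation kinase P-TEFb in an inactive complex.

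Both tables hold log2(normalized count + 1), and whole reads could be recovered from these values. Relative depth, taken from what 1 read was worth after the authors' scaling, was 0.789 to 0.873 in lidocaine, 0.808 to 0.912 in IMQ and 1.09 to 1.34 in WT libraries. Both tables list only genes whose group means differed by about 1 or more on the log2 scale. Against that background, 95.9% of the 4136 genes in the IMQ against WT table passed limma at an adjusted p of 0.05, and passing is therefore no mark of the small RNAs. Their direction differed from that of the table. Of 45 members, 38 had a lower mean in IMQ and 37 of these passed, beside 37.0% of all listed genes that passed as lower. All 7 with a higher mean passed, beside 58.9% of all listed genes that passed as higher. With the authors' scaling undone, 1585 listed genes passed as lower and 1281 as higher, and with scaling by trimmed mean of M-values (TMM) 1583 and 1710, in place of 1530 and 2435. The members split into 38 lower and 5 higher calls with the scaling undone, and into 37 and 5 with TMM. The median difference was -2.37 for the members and 1.25 for all listed genes. With members at 0 in a whole group set to a floor of 3 reads per library, the members' median was -2.30. The libraries of the groups did not overlap for 43 of the 45, beside 92.8% of all listed genes. The sources used here do not give whether fragments were selected by size or ribosomal RNA was removed, steps that can set how many reads any RNA this short receives, and their part in the levels of all classes here, box C/D included, was not tested. RNA was measured in whole tissue, so fewer cells of a type and less RNA per cell cannot be told apart.

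**Figure D1:**
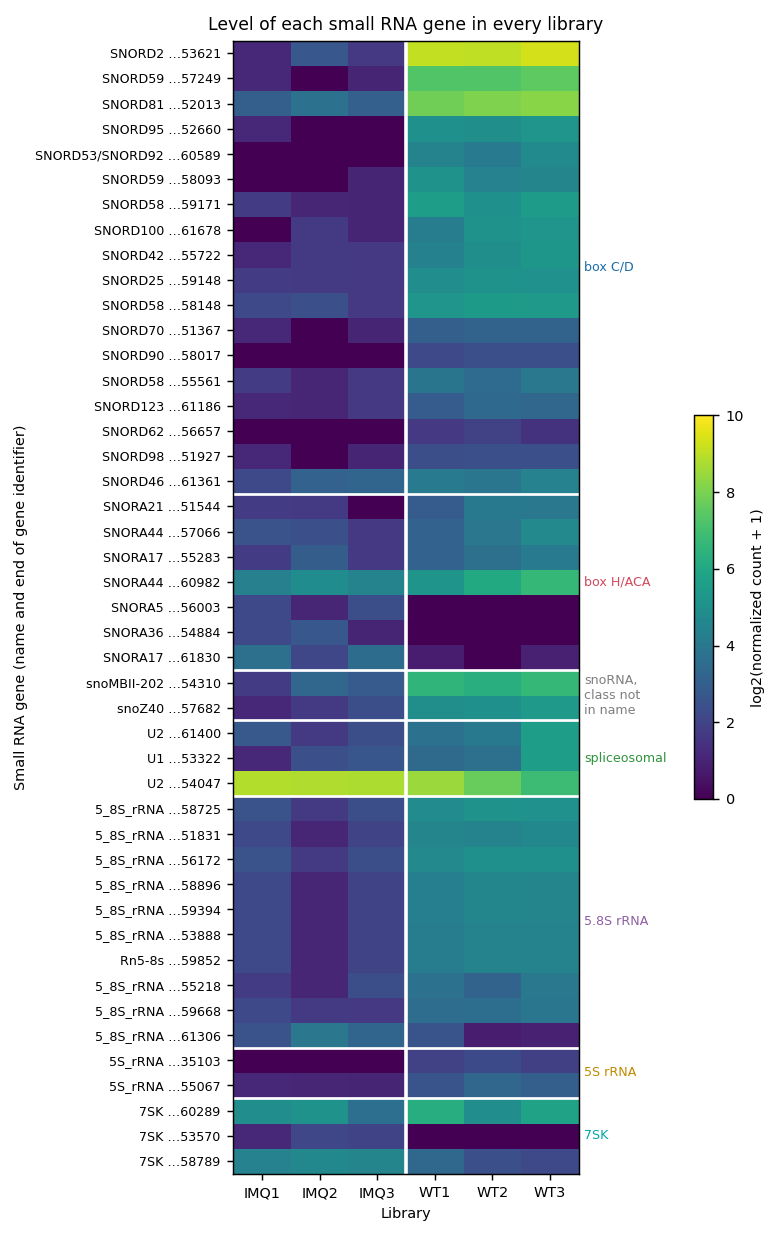
Level of each of the 45 small RNA genes in the 3 IMQ and 3 WT libraries, as log2(normalized count + 1) by colour, with rows grouped by class. The 18 box C/D rows are dark in every IMQ library, with at most 11 reads each, and box H/ACA rows and 7SK rows run in both directions.

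The box C/D snoRNAs were lower in IMQ without exception. All 18 listed rows fell, all passed, and in each the 3 IMQ libraries lay below the 3 WT libraries, beside 35.8% of all listed genes in that order. The median difference was -3.36, or -3.27 with the floor, and single differences ran from -7.32 to -1.27. Summed over the 18 rows, the IMQ libraries held 25, 36 and 33 reads and the WT libraries 1686, 1673 and 1653 reads. In normalized counts these sums were 30.1, 40.3 and 35.2 in IMQ libraries and 1219, 1237 and 1475 in WT libraries. Reads were thus few and even in IMQ libraries and many and even in WT libraries. In 14 of the 18 rows no IMQ library had more than 3 reads.

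The 3 listed box C/D snoRNAs with the most reads in WT lie within other genes, by position in the RefSeq annotation of the GRCr8 rat assembly. SNORD2 lies in Eif4a2, a translation initiation helicase. SNORD59 lies in Atp5f1b, the catalytic beta subunit of mitochondrial ATP synthase. The match is by name, and which of the 2 SNORD59 rows lies there is not known. SNORD81 lies in Gas5, a noncoding RNA that carries many snoRNAs. Their host promoters are shown because host genes of snoRNAs are known for transcripts that begin in a pyrimidine tract. Each sequence holds 65 bases from RefSeq (GRCr8), 40 before and 25 from the annotated start, read 5' to 3' on the transcribed strand. Capitals mark CTTTT or CTTTC within 15 bases of the start on either side. Of 33469 promoters, 6.79% held either motif there on the transcribed strand and 7.06% on the opposite strand. The Eif4a2 window is chr11:91275299-91275363 on the minus strand, the Atp5f1b window chr7:1100018-1100082 on the plus strand and the Gas5 window chr13:75836923-75836987 on the plus strand.
Eif4a2: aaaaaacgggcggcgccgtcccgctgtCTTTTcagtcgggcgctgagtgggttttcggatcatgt
Atp5f1b: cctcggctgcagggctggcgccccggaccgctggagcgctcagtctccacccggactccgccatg
Gas5: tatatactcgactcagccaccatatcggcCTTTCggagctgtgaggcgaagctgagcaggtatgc
The windows of Eif4a2 and Gas5 held a match on the transcribed strand, and these letters are not in that of Atp5f1b. The match began at -13 from the annotated start in Eif4a2 and at -11 in Gas5. Both matches end before the annotated start, so neither annotated transcript begins in the marked letters. None of the 3 windows matched on the opposite strand.

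SNORD2 (ENSRNOG00000053621) had 1, 5 and 2 reads in IMQ libraries and 754, 707 and 733 reads in WT libraries. Its level averaged 1.84 ± 0.81 in IMQ and 9.16 ± 0.17 in WT (SD, n = 3 each), a difference of -7.32 (SE 0.47, limma adjusted p = 7.41e-05). Pooled over libraries and scaled by depth, it was 189-fold lower in IMQ, with an exact 95% interval of 95.9 to 439 that covers counting error only. Every WT library was far above every IMQ library, none of which held more than 5 reads. SNORD59 (ENSRNOG00000057249) had 1, 0 and 1 reads in IMQ libraries and 217, 212 and 204 reads in WT libraries. The fitted difference was -6.64 (SE 0.43, limma adjusted p = 7.89e-05), and with 2 reads in all IMQ libraries the pooled ratio of 218-fold lower has an interval of 60.2 to 1808. SNORD81 (ENSRNOG00000052013) kept the most reads in IMQ of the box C/D rows, with 6, 11 and 7, against 313, 359 and 336 in WT. It averaged 3.29 ± 0.39 in IMQ and 8.04 ± 0.20 in WT, and the difference was -4.75 (SE 0.36, limma adjusted p = 0.000121), or 29.0-fold lower pooled (19.4 to 45.5).

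The next box C/D rows had hardly any reads in IMQ and clearly more in WT. SNORD53_SNORD92 (ENSRNOG00000060589) had no read in any IMQ library and 29, 22 and 29 in WT libraries, at least 6.21-fold lower against a floor of 3 reads per library (limma adjusted p = 0.000183). SNORD95 (ENSRNOG00000052660) had 1, 0 and 0 reads in IMQ and 44, 41 and 41 in WT, a pooled ratio of 87.0-fold lower with an interval of 15.3 to 3462. SNORD58 was listed as 3 rows, which may share reads as near-identical copies. The row with the most WT reads of these (ENSRNOG00000059171) had 2, 1 and 1 in IMQ and 65, 43 and 50 in WT, a difference of -4.08 (SE 0.40, limma adjusted p = 0.000311). A second SNORD59 row (ENSRNOG00000058093) had 0, 0 and 1 reads in IMQ and 47, 28 and 25 in WT. SNORD25 (ENSRNOG00000059148) had 2 reads in each IMQ library and 40, 45 and 36 in WT.

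The remaining box C/D rows were SNORD42, SNORD46, SNORD62, SNORD70, SNORD90, SNORD98, SNORD100, SNORD123 and the other 2 rows of SNORD58. Differences ran from -3.94 for SNORD100 to -1.27 for SNORD46. SNORD46 (ENSRNOG00000061361) had 3, 7 and 8 reads in IMQ and 22, 19 and 23 in WT (SE 0.43, limma adjusted p = 0.0266), or 2.45-fold lower pooled (1.44 to 4.40). SNORD90 was at 0 in all IMQ libraries and had 5, 6 and 5 reads in WT, at least 1.23-fold lower. SNORD62 was at 0 in IMQ and had 3, 4 and 2 reads in WT. Both groups of SNORD62 are at or near the floor, so no fold is given. Over the 38 members lower in IMQ, those higher in WT had the larger differences (Spearman rho -0.64 across genes, which share the same libraries). A member with few WT reads cannot show a large fold, and the WT level is itself a term of the difference. With IMQ levels near the floor, a negative rho is largely built in, and nothing about the genes is concluded from it.

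The snoRNA names snoMBII-202 and snoZ40 do not give a class, and both rows moved like box C/D. snoMBII-202 (ENSRNOG00000054310) had 2, 8 and 6 reads in IMQ libraries and 127, 105 and 111 in WT libraries, a difference of -3.84 (SE 0.48, limma adjusted p = 0.00079). snoZ40 (ENSRNOG00000057682) had 1, 2 and 4 reads in IMQ and 41, 43 and 46 in WT, a difference of -3.38 (SE 0.45, limma adjusted p = 0.00102). No library of one group reached the range of the other for either RNA.

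**Figure D2:**
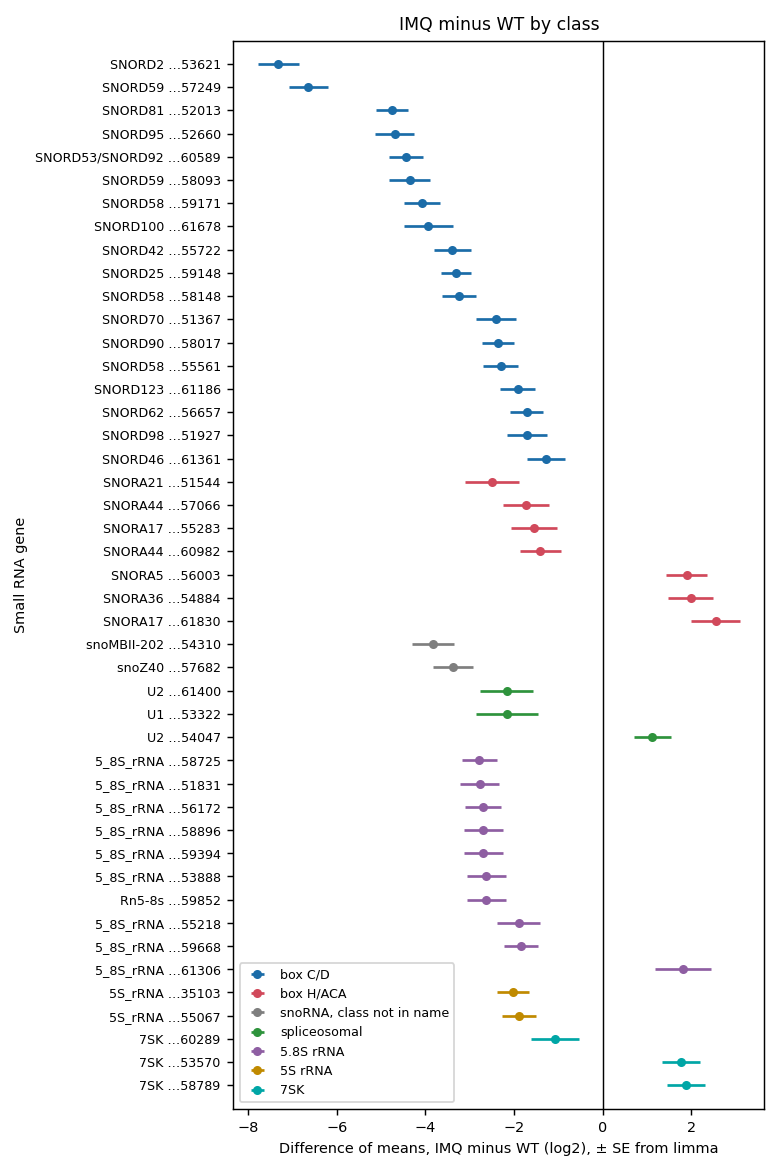
Difference of means, IMQ minus WT, on the log2(normalized count + 1) scale for each of the 45 small RNA genes, with the SE from limma, coloured by class. All box C/D points lie below 0, from -7.32 to -1.27, and the 7 box H/ACA points lie between -2.50 and 2.56 on both sides of 0.

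Box H/ACA snoRNAs moved both ways. Of 7 listed rows, 4 fell and 3 rose, all passed, and the median difference was -1.41. Reads were low throughout, with sums of 40, 46 and 39 in IMQ and 80, 147 and 178 in WT libraries. The WT libraries differed more among themselves here than for box C/D, with a median of WT replicate 3 over WT replicate 1 of 1.00 for box H/ACA and 0.20 for box C/D. The part of this spread in the result was not tested.

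SNORA44 had the most reads of the listed box H/ACA rows. Its larger row (ENSRNOG00000060982) had 16, 25 and 20 reads in IMQ and 48, 90 and 113 in WT, a difference of -1.41 (SE 0.47, limma adjusted p = 0.024). Its smaller row (ENSRNOG00000057066) had 4, 4 and 2 reads in IMQ and 11, 20 and 28 in WT, a difference of -1.73 (SE 0.52, limma adjusted p = 0.0178). For both rows the lowest WT library was replicate 1, which still lay above every IMQ library. SNORA21 (ENSRNOG00000051544) fell (difference -2.50, SE 0.62, limma adjusted p = 0.00966), with 2, 2 and 0 reads in IMQ and 9, 21 and 17 in WT. SNORA17 was listed in 2 rows of opposite direction. The row ENSRNOG00000055283 had 2, 6 and 2 reads in IMQ and 11, 16 and 19 in WT (difference -1.55, SE 0.51, limma adjusted p = 0.0236). The row ENSRNOG00000061830 had 10, 3 and 10 reads in IMQ and 1, 0 and 1 in WT (difference 2.56, SE 0.55, limma adjusted p = 0.00619). The pooled ratio of that second row was 16.7-fold higher in IMQ, with an interval of 4.12 to 146. One name thus covers a copy that fell and a copy that rose, and how the authors divided reads between copies is not given in the sources used here. The larger SNORA44 row was not among the members followed with single libraries left out. The call of the SNORA44 row ENSRNOG00000057066 was lost without IMQ replicate 3 (-1.45, adjusted p = 0.0635) and without WT replicate 2 (-1.72, 0.0534). The call of the SNORA17 row that fell was lost without any 1 of IMQ replicate 1 (-1.37, 0.0658), IMQ replicate 3 (-1.31, 0.0783), WT replicate 2 (-1.54, 0.0632) or WT replicate 3 (-1.30, 0.0627).

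SNORA5 and SNORA36 were at 0 in every WT library. SNORA5 (ENSRNOG00000056003) had 3, 1 and 4 reads in IMQ libraries (limma adjusted p = 0.00965), too near the floor for a fold. SNORA36 (ENSRNOG00000054884) had 3, 5 and 1 reads in IMQ libraries, at least 1.46-fold higher against the floor (limma adjusted p = 0.011). These few reads bound the rise only loosely.

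**Figure D3:**
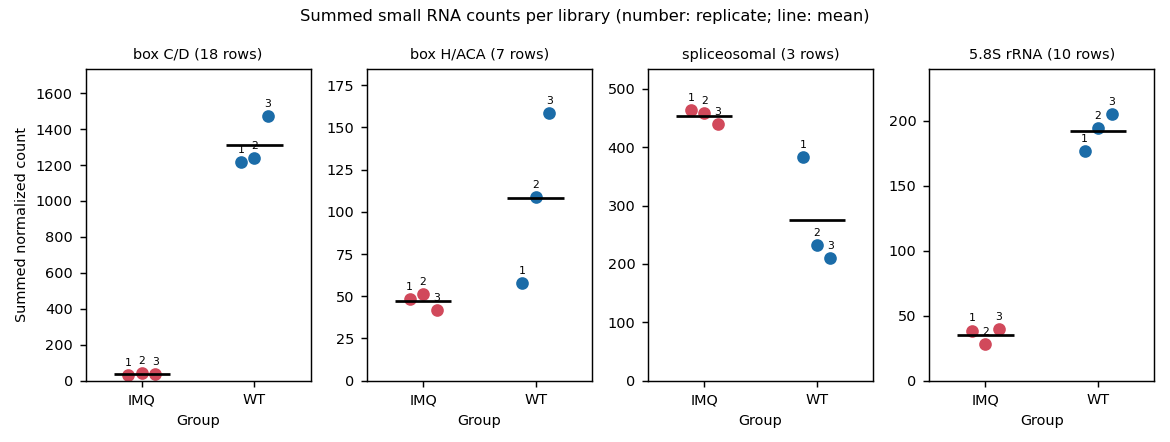
Normalized counts summed over the listed rows of 4 classes in each IMQ and WT library, with numbers for replicates and lines for means, each panel on its own axis from 0. Box C/D sums were 30.1 to 40.3 in IMQ and 1219 to 1475 in WT, while box H/ACA and spliceosomal sums were spread widely over the WT libraries.

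The spliceosomal RNAs comprised 3 rows, with 2 lower and 1 higher in IMQ. U2 (ENSRNOG00000054047) had the most reads of the listed small RNA rows in the IMQ libraries, with 379, 404 and 403 reads, against 498, 278 and 128 in WT libraries. After scaling it averaged 8.80 ± 0.05 in IMQ and 7.68 ± 0.82 in WT, a difference of 1.13 (SE 0.43, limma adjusted p = 0.0357). IMQ libraries were close to one another, WT libraries were far apart, and in reads WT replicate 1 was the highest of all 6. The call was lost with TMM (difference 0.84, adjusted p = 0.132), with the scaling undone (0.60, 0.267), and without WT replicate 3 (0.71, 0.0646) or WT replicate 2 (1.13, 0.0889). It was lost too, at differences of 1.11 to 1.15, without IMQ replicate 1 (adjusted p = 0.0883), IMQ replicate 2 (0.0921) or IMQ replicate 3 (0.0839). Without any 1 of the IMQ libraries or WT replicate 2 the difference hardly moved, and why those calls were lost was not tested. A second U2 row (ENSRNOG00000061400) fell, with 5, 2 and 4 reads in IMQ and 17, 21 and 54 in WT (difference -2.16, SE 0.60, limma adjusted p = 0.014). U1 (ENSRNOG00000053322) fell, with 1, 4 and 5 reads in IMQ and 14, 16 and 53 in WT (difference -2.16, SE 0.70, limma adjusted p = 0.0224). Without IMQ replicate 1 the U1 difference was -1.69 (adjusted p = 0.07). WT replicate 3 stood well above the other two WT libraries for both rows, and the class median of WT replicate 3 over WT replicate 1 was 1.89. U1 and U2 occur as many near-identical copies, so the split of reads over rows is uncertain.

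The 5.8S ribosomal RNA, which is cut from the same precursor as the 18S and 28S RNAs, was listed in 10 rows. Of these 9 fell and 1 rose, with a median difference of -2.66. The 9 rows that fell were 4.44-fold to 8.58-fold lower in IMQ, pooled. For example, ENSRNOG00000058725 had 4, 2 and 4 reads in IMQ and 38, 45 and 36 in WT, a difference of -2.78 (SE 0.40, limma adjusted p = 0.00135). Rn5-8s (ENSRNOG00000059852) had 3, 1 and 3 reads in IMQ and 25, 29 and 24 in WT, and another row (ENSRNOG00000053888) held the same reads in each library. A further pair (ENSRNOG00000058896 and ENSRNOG00000059394) also shared its reads, with 3, 1 and 3 in IMQ and 26, 31 and 25 in WT. These 4 rows therefore count as at most 2 results. ENSRNOG00000051831 also had 3, 1 and 3 reads in IMQ, with 31, 29 and 27 in WT. ENSRNOG00000056172 had the same IMQ reads as ENSRNOG00000058725, with 35, 42 and 35 in WT. Most rows that fell thus held nearly the same reads, and the count of 9 may overstate the separate results. Whether these rows share reads as near-identical copies was not tested. The exception, ENSRNOG00000061306, had 4, 13 and 8 reads in IMQ and 7, 1 and 1 in WT, with groups that overlap (difference 1.81, SE 0.63, limma adjusted p = 0.0281). Its call was lost with TMM (adjusted p = 0.0597), with the scaling undone (0.0953), and, at differences of 1.46 to 1.81, without IMQ replicate 2 (0.0828), IMQ replicate 3 (0.0668), WT replicate 2 (0.0903) or WT replicate 3 (0.0735).

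Both 5S ribosomal RNA rows fell. ENSRNOG00000055067 had 1 read in each IMQ library and 7, 12 and 8 in WT libraries (difference -1.89, SE 0.38, limma adjusted p = 0.0051), a pooled ratio of 6.21-fold lower with an interval of 1.91 to 32.0. ENSRNOG00000035103 was at 0 in IMQ libraries and had 4, 5 and 3 reads in WT libraries, too near the floor for a fold.

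Of 3 listed rows of 7SK RNA, 2 rose in IMQ and 1, the row with the most reads, had a lower mean that did not pass. Summed over the rows, 7SK normalized counts were 50.6, 61.6 and 37.3 in IMQ libraries and 83.9, 33.3 and 56.2 in WT libraries, which overlap. ENSRNOG00000058789 had 17, 22 and 21 reads in IMQ and 13, 6 and 4 in WT, and averaged 4.55 ± 0.13 in IMQ and 2.67 ± 0.63 in WT (difference 1.88, SE 0.44, limma adjusted p = 0.00782). Each IMQ library lay above each WT library for that row. ENSRNOG00000053570 had 1, 3 and 3 reads in IMQ and none in WT (limma adjusted p = 0.00884), too near the floor for a fold. ENSRNOG00000060289 had 24, 30 and 11 reads in IMQ and 103, 39 and 59 in WT, a difference of -1.07 that did not pass (SE 0.54, limma adjusted p = 0.0886) and did pass with the scaling undone (-1.58, adjusted p = 0.0331). The class median of 1.78 was 0.24 without IMQ replicate 2 and 0.63 without IMQ replicate 3.

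The proteins that bind these RNAs were mostly not among the listed genes. Of 47 genes of the Sm, LSm and spliceosomal snRNP list, 14 were listed and all 14 fell, with a median of -1.51. Of all listed genes, 37.0% passed as lower. Lsm5, part of the ring that binds U6 RNA, averaged 7.09 ± 0.38 in IMQ and 9.22 ± 0.68 in WT (difference -2.13, SE 0.41, limma adjusted p = 0.00434). Snrpg, a protein of the Sm ring on U1, U2, U4 and U5, fell by 1.92 (SE 0.40, adjusted p = 0.00545) and Snrpd3, of the same ring, by 1.54 (SE 0.34, adjusted p = 0.00691). In this list the median of WT replicate 3 over WT replicate 1 was 1.43, close in size to the fall, and its part was not tested. For box H/ACA, Gar1 fell by 1.09 (SE 0.26, adjusted p = 0.00895) and Nop10 by 1.14 (SE 0.33, adjusted p = 0.0152), both core proteins, and the other 4 genes of the 6 were not listed. On the list of 14 genes drawn up for box C/D proteins and assembly, none of the core proteins Fbl, Nop56, Nop58 and Snu13 was listed. Its only listed gene, Zfp593, is not a core box C/D protein, and its link to box C/D particles was not tested. It fell by 1.24 (SE 0.44, limma adjusted p = 0.0304), with WT libraries at 8.92, 9.87 and 10.60. WT replicate 3 over WT replicate 1 was 1.68 for Zfp593, larger than the fall. None of 7 genes of the 7SK complex and P-TEFb and none of 29 genes of RNA polymerase III and snRNA gene transcription was listed. The second of these lists leaves out Polr2k, a subunit that the polymerases share, which was listed and is given below.

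For RNA maturation, 2 of 42 genes were listed. Ints2, a subunit of the Integrator complex that cleaves the 3' ends of snRNA transcripts, rose by 1.33 (SE 0.45, adjusted p = 0.0253), and Exosc6, a subunit of the RNA exosome, fell by 1.35 (SE 0.53, adjusted p = 0.0394). For RNA polymerase I and early ribosome assembly, 3 of 45 genes were listed. Heatr1, a factor of pre-ribosomal RNA processing, rose by 7.93 (SE 0.77, adjusted p = 0.000292). It averaged 9.65 in IMQ and 1.73 ± 1.66 in WT, with no read in WT replicate 1. The WT level was thus low and uneven, and the size of the Heatr1 rise is bounded only loosely. The shared polymerase subunit Polr2k fell by 1.74 (SE 0.36, adjusted p = 0.00547) and Imp3 by 1.25 (SE 0.34, adjusted p = 0.0127). Of 8 listed replication-dependent histone genes, 6 fell and 2 rose. Hist2h2aa3 fell by 2.28 (SE 0.39, adjusted p = 0.00267) and Hist2h2aa2 by 2.00 (SE 0.39, adjusted p = 0.00457), and Hist1h2ail1 rose by 1.70 (SE 0.35, adjusted p = 0.00509). A gene that was not listed had a group difference below the size the tables show or missed another rule of the authors, and its level was not analysed here.

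Host genes were looked up by the RefSeq position of the snoRNA of that name. Of 15 box C/D names in the IMQ against WT table, 12 lay inside another gene, with 12 hosts in all. Only 2 of these hosts were listed. Rpl17, the host of SNORD58 and a ribosomal protein of the large subunit, averaged 12.13 in IMQ and 13.19 in WT (difference -1.05, SE 0.35, limma adjusted p = 0.0246). Rpl23a, the host of SNORD42 and also of the large subunit, averaged 13.04 in IMQ and 14.23 in WT (difference -1.19, SE 0.31, limma adjusted p = 0.0122). The 3 SNORD58 rows differed by -4.08, -3.23 and -2.30 and SNORD42 by -3.40 (SE 0.42) on the same scale. Hosts were matched by name, and which of the SNORD58 rows lies in Rpl17 is not known. The differences between snoRNA and host were not tested. The hosts Eif4a2, Atp5f1b, Gas5, Rack1, Rps12, Wdr43, Ccar1, Prrc2b and Rc3h2 were not listed in either table. None of 21 long noncoding snoRNA hosts was listed, Gas5 and Snhg1 included.

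Markers of the cell types a ganglion sample can hold moved between the same groups. Of all listed genes, 37.0% passed as lower and 58.9% as higher. Of 13 sensory neuron markers 3 were listed, and all 3 fell, with a median of -1.09. Of 7 macrophage markers 6 were listed and all rose, with a median of 2.76, and all 4 T cell markers rose, with a median of 3.25. Of 9 glia markers 2 were listed and both rose, and of 7 B and plasma cell markers 4 were listed, of which 3 rose and 1 fell. All 5 skeletal muscle markers fell, with a median of -2.99, as did 4 of 6 erythroid markers (5 rows, Hba-a2 having 2) and 4 of 4 keratinocyte markers, with medians of -2.44 and -2.83 over rows. Between WT replicates 3 and 1 the medians were 1.31 for neurons, 1.72 for muscle and 1.33 for erythroid markers, beside 0.20 for the box C/D rows and 0.12 for all listed genes. The part of cell make-up in the small RNA differences was not tested.

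Epidural lidocaine was compared with IMQ alone in the second table, where 94.6% of 775 listed genes passed limma and 87.1% passed as lower. It held 5 small RNA genes, of which 2 passed as lower and 2 as higher, beside 7.48% of all listed genes that passed as higher. Neither a box C/D snoRNA nor a U1, U2, 5S or 5.8S row was listed there. The box C/D rows that were low in IMQ therefore have no value under lidocaine in the tables used here. The 2 lidocaine libraries did not overlap the 3 IMQ libraries for any of the 5 genes, as for 98.1% of all listed genes (89.2% with lidocaine below).

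SNORA70 (ENSRNOG00000054339), a box H/ACA snoRNA, had 6 and 13 reads in lidocaine and 24, 22 and 25 in IMQ libraries. It averaged 3.51 ± 0.63 in lidocaine (SD, n = 2) and 4.79 ± 0.11 in IMQ (SD, n = 3), a difference of -1.28 (SE 0.43, limma adjusted p = 0.0265). U7 (ENSRNOG00000053671) had 11 and 39 reads in lidocaine and 9, 10 and 11 in IMQ, and its difference of 1.05 did not pass (SE 0.55, limma adjusted p = 0.0976). Lidocaine replicate 2 was far above the other 4 libraries for U7. Without lidocaine replicate 1 the U7 difference was 1.86 (adjusted p = 0.0213). No replication-dependent histone gene was listed for lidocaine against IMQ.

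The 3 listed 7SK rows went in opposite directions under lidocaine. ENSRNOG00000058789 had 7 reads in each lidocaine library and 17, 22 and 21 in IMQ libraries (difference -1.35, SE 0.37, limma adjusted p = 0.0151). ENSRNOG00000058555 had 52 and 91 reads in lidocaine and 36, 36 and 17 in IMQ (difference 1.32, SE 0.49, limma adjusted p = 0.0361). ENSRNOG00000060289 had 38 and 68 reads in lidocaine and 24, 30 and 11 in IMQ (difference 1.36, SE 0.54, limma adjusted p = 0.0456). In both rows that rose, IMQ replicate 3 was the lowest and lidocaine replicate 2 the highest library. Outside the rule, the signal recognition particle RNAs Rn7sl1 and Metazoa_SRP rose by 1.18 (SE 0.41, adjusted p = 0.03) and 1.17 (SE 0.42, adjusted p = 0.0325), again with IMQ replicate 3 lowest and lidocaine replicate 2 highest. In the same comparison all 7 B and plasma cell markers, 4 of 6 erythroid, 3 of 7 macrophage and 3 of 4 T cell markers fell. These counts stand beside 87.1% of all listed genes that passed as lower, so falling is no mark of these cell types. Of 9 glia markers 2 were listed, of which Gfap fell by 1.27 and Glul, at -1.08, did not pass. No neuron marker was listed, and the part of these cell types in the small RNA differences was not tested.

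Calls were lost when single libraries were left out, while every difference kept its sign. Without IMQ replicate 3, none of the 5 genes passed. The differences of ENSRNOG00000058789 (-1.35, adjusted p = 0.0554) and SNORA70 (-1.28, 0.0749) did not move, and why those calls were lost was not tested. The differences of ENSRNOG00000058555 (0.93, 0.1) and ENSRNOG00000060289 (0.91, 0.12) became smaller. Neither of these higher rows passed without lidocaine replicate 2 (differences of 0.99 and 1.02, adjusted p = 0.229 and 0.262) or without lidocaine replicate 1, where the differences were larger (1.65 and 1.70, adjusted p = 0.103 and 0.121). SNORA70 did not pass without lidocaine replicate 1 (-0.84, 0.0908). Without IMQ replicate 1, ENSRNOG00000060289 (1.53, 0.0634) and SNORA70 (-1.22, 0.0623) did not pass. Most genes of this table are lower in lidocaine, and TMM over them moved the median of all listed genes by 1.36. With TMM 63 listed genes passed as lower and 70 as higher, in place of 675 and 58, the differences of ENSRNOG00000058789 and SNORA70 were -0.07 and 0.02, and U7 passed (2.35, adjusted p = 0.0273).

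**Figure D4:**
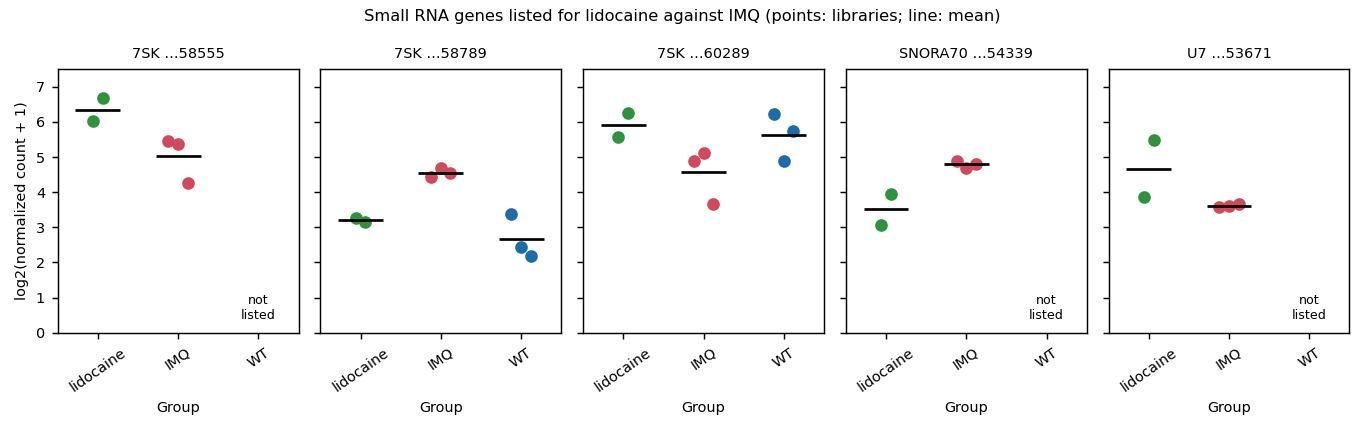
Levels of the 5 small RNA genes of the lidocaine against IMQ table in lidocaine, IMQ and, where listed, WT libraries, as log2(normalized count + 1), with points for libraries and lines for means. The 7SK row ENSRNOG00000058789 is lower in lidocaine than in IMQ, the rows ENSRNOG00000058555 and ENSRNOG00000060289 are higher, and WT values exist for 2 of the 5 genes.

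Only 2 members, both 7SK rows, have values in all 3 groups. Lidocaine was set against WT on the 533 genes of both tables with a mean normalized count of at least 1, where 37.3% passed (4.5% as lower and 32.8% as higher) and the libraries did not overlap for 62.5% (7.13% with lidocaine below). ENSRNOG00000058789 had 7 and 7 reads in lidocaine and 13, 6 and 4 in WT, averaging 3.20 ± 0.09 in lidocaine (SD, n = 2) and 2.67 ± 0.63 in WT (SD, n = 3). Its difference of 0.53 (SE 0.66, limma adjusted p = 0.573) did not pass, and the libraries of the groups overlapped. ENSRNOG00000060289 had 38 and 68 reads in lidocaine and 103, 39 and 59 in WT, averaging 5.92 ± 0.48 in lidocaine and 5.63 ± 0.68 in WT. Its difference of 0.29 (SE 0.50, limma adjusted p = 0.709) did not pass either, with overlap again. Counting error alone allows a pooled lidocaine to WT ratio of 0.654 to 2.79 for the first row and 0.931 to 1.51 for the second. The sign of both differences changed with TMM. This comparison shares the WT libraries with IMQ against WT and the lidocaine libraries with lidocaine against IMQ, so the values are not independent.

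A few other short RNAs outside the rule were listed for IMQ against WT. The precursor of miR-675, which lies in the H19 gene, rose by 1.93 (SE 0.41, limma adjusted p = 0.00606), and that of miR-142, a microRNA of blood cells, rose by 1.58 (SE 0.55, adjusted p = 0.0277). Mir2861 was listed at 0 in every IMQ library (difference -2.08, SE 0.45, adjusted p = 0.00644). RNase_MRP, an RNA that cleaves the ribosomal RNA precursor, differed by -1.12 and did not pass (SE 0.52, adjusted p = 0.0693).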

How the data were processed

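Tools listed are DESeq2, STAR 2.5.3a and bcl2fastq, per the submitters' processing notes. The sources used here do not give genome build, annotation, read counting, strand setting, fragment size selection or ribosomal RNA removal. Reads of a snoRNA and of its host intron, and of near-identical copies, cannot be told apart. The authors deposited log2 values, log2(normalized count + 1), for selected genes in 2 tables. Every value checked up to 2000 reads was a whole multiple of 1 step per library (tolerance 0.02 reads), and the reads printed are these multiples. For the 560 genes that both tables list, IMQ values were the same to within 4.98e-09, and the 8 libraries share 1 scale.

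Differences were tested with limma 3.58.1 (R 4.3.3, mean-variance trend, pseudocount 1, mean normalized count of at least 1), adjusted by Benjamini-Hochberg over the whole table, at a threshold of 0.05. Low genes' differences are understated on this scale. The authors had picked the listed genes for their differences in these libraries, so the adjusted p does not control false discoveries among all genes. Near the threshold the adjustment hardly changed p. For 7SK ENSRNOG00000060289, IMQ against WT, the limma p was 0.0882 before and 0.0886 after adjustment. Ratios pooled over libraries have exact Clopper-Pearson 95% intervals, and the floor is 3 reads. The plan named a count test for raw counts, which was not used because the values are log2. The script was tested on simulated data.

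Members, lists and tests were chosen with earlier results of these data known. Named in full were members in both tables, in each class the 6 smallest adjusted p-values and 4 largest differences, members higher in IMQ, all of the lidocaine table, hosts, and up to 3 genes per list. Further rows were named after their values were seen. Hosts and promoters came from RefSeq (GRCr8) by symbol. Alternatives were other scalings, voom, pseudocounts, filters, no trend, a threshold of 0.01, leaving out single libraries, and replicate number as a block.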

Additional observations from a re-analysis of the deposited data

How the results depend on the processing

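For IMQ against WT, the count of 37 lower members was 24 with a mean normalized count of at least 10, and the 7 higher were 2 with that filter and 4 at an adjusted p of 0.01. Leaving out 1 library gave 32 to 37 lower and 3 to 7 higher. Without IMQ replicate 2 or 3, some higher rows near the floor were under the filter and not counted. With a pseudocount of 10 the medians were -1.11 for all members, -1.74 for box C/D, -0.69 for H/ACA, -2.24 for snoRNAs without a class in the name, -1.11 for spliceosomal RNAs, -1.29 for 5.8S, -0.50 for 5S and 0.33 for 7SK. With 0.1 they were -3.07 for all, -4.65 for box C/D and -3.74 for 5S. With TMM they were -2.53 for all and -3.60 for box C/D, where the median of all listed genes moved by -0.29. With the scaling undone, which moved all listed genes by -0.53, they were -2.72 for all, -3.79 for box C/D, -1.92 for H/ACA, -3.10 for 5.8S and -2.26 for 5S. With voom on the recovered reads they were -2.79 for all, -3.54 for box C/D and -2.36 for 5S. With the filter at 10 they were -2.78 for all, -4.22 for box C/D and 0.41 for 7SK. Leaving out 1 library gave -2.54 to -2.27 for all, -3.64 to -3.26 for box C/D and 0.24 to 1.94 for 7SK. The filter at 10 left fewer rows, and ENSRNOG00000053570 was also missing from the 7SK medians without IMQ replicate 2 or 3. Those medians are therefore over other rows than the main ones. The cause of the other moves was not tested. No sign of a difference between IMQ and WT changed among the 29 named members. For lidocaine against IMQ, the 2 lower calls became 0 with TMM and at 0.01, the 2 higher calls became 1 with a pseudocount of 0.1 and 0 at 0.01, and leaving out 1 library gave 0 to 2 of each. SNORA70 was at 0.017 with TMM. For lidocaine against WT, 7SK ENSRNOG00000058789 was at -0.19 with TMM. ENSRNOG00000060289 was at -0.52 with TMM, -0.28 with the scaling undone, -0.071 without WT replicate 2 and -0.048 without lidocaine replicate 2, in a range of -0.071 to 0.64 when 1 library was left out. Deviations of same-numbered libraries from their group means had correlations of -0.16 to 0.04. With so few libraries per group this cannot exclude pairing, and the labels do not say what the numbers stand for. With the replicate number as a block, 36 members passed as lower and 7 as higher for IMQ against WT, and 0 and 0 for lidocaine against IMQ. Counting copies with the same reads once, added after seeing the data, left 35 lower and 7 higher. Rows with nearly the same reads were still counted apart. Where one library was left of an arm, it was assumed to vary like the other group. Of the 38 members lower in IMQ, 23 had at most 3 reads in every IMQ library, so the depth bounds their folds loosely.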
